A study of Mus musculus with 23 samples.

Results

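The genes described here carry glucose carbon through glycolysis, the pentose phosphate branch, the pyruvate dehydrogenase step and the tricarboxylic acid (TCA) cycle. They were taken as a list of 43 gene symbols, and each symbol was read from the array probe set that carried that symbol alone and had the highest mean over the 23 arrays. By this rule 39 of the 43 were measured, of 19938 symbols on the array in all. Gpi1, Eno1 and G6pdx had no probe set under these symbols, and Gapdh had only probe sets shared with other symbols, so those 4 were not analysed here.

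Glycolysis splits glucose into pyruvate in the cytosol. Lactate dehydrogenase can turn that pyruvate into lactate, which monocarboxylate transporters carry out of the cell, or the pyruvate dehydrogenase complex can turn it into acetyl-CoA for the TCA cycle in mitochondria. Pyruvate dehydrogenase kinases (Pdk1 to Pdk4) switch that complex off, and the pentose phosphate branch makes ribose for nucleotides and NADPH. Rapidly dividing lymphoid cells are known for high glucose uptake and lactate release.

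Gene expression was measured with 1 array per sample in bone marrow of mice that were all irradiated with 2 Gy when 2 months old. Pax5+/- mice carry 1 working copy of Pax5, which encodes the transcription factor of B cell commitment, and WT mice carry both. Leukemic samples (10 Pax5+/-, samples 1 to 10, and 3 WT, samples 14, 15 and 17) are titled pro-B cells and described as leukemic marrow. Preleukemic samples (7 Pax5+/-, samples 11 to 13 and 21 to 24, and 3 WT, samples 18 to 20) are pro-B and pre-B cells collected 3 weeks after the dose. The labels state neither a sort, nor strain, sex or the age at leukemia, and no unirradiated mice are among the samples, so leukemia, B cell stage, time since irradiation and age cannot be told apart. A further WT leukemia, sample 16, was not analysed here.

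Values are log2 array signals, with array medians of 6.06 to 6.2, and precision is set by how many arrays a group holds. Pax5 lay between 11.31 and 11.53 in Pax5+/- and between 11.45 and 12.06 in WT preleukemic samples, a difference that did not pass the test (adjusted p = 0.965). Where this probe set lies relative to the altered part of the gene is not known here, so it does not check the genotype. Markers of the pro-B and pre-B list were above the array median in every sample for 11 of 11 measured genes in both preleukemic groups, 10 of 11 in Pax5+/- leukemias and 9 of 11 in WT leukemias. Of the same 11 genes, 6 fell in Pax5+/- and 8 in WT leukemia, among them Ebf1 (-1.49 in Pax5+/- mice) and Cd79a (-1.43), and the mean over the list was 9.47 to 10.69 in Pax5+/- leukemias and 10.91 to 11.35 before. Pax5 itself fell 7.28-fold in Pax5+/- (adjusted p = 1.43e-04) and 5.87-fold in WT leukemia (adjusted p = 0.0335). Markers of other cells differed between stages as well: 5 of 5 megakaryocyte, 9 of 12 monocyte, 10 of 14 neutrophil and 9 of 10 stromal and endothelial markers rose in Pax5+/- leukemia, and 5, 6, 1 and 8 of these in WT leukemia. In the stromal and endothelial list only Pecam1 fell, in both genotypes (-0.68 and -0.79). The other 9, among them Cdh5 and Kdr, rose in Pax5+/- leukemia. In bulk samples, fewer cells of a type and less RNA per cell cannot be told apart. Of 14 proliferation genes, 12 rose and 0 fell in leukemia of either genotype. These marker counts are to be read beside all genes tested, of which 28.0% rose and 36.5% fell in Pax5+/- leukemia. In WT leukemia 17.9% rose and 19.3% fell, and the 1 of 14 neutrophil markers that rose there is below that share. The median log2 difference of these 14 was nevertheless 2.05 in WT mice and 1.78 in Pax5+/- mice. Their mean was 9.24 to 10.20 in WT leukemias, and 6.33, 6.34 and 10.57 in WT preleukemic samples 18, 19 and 20.

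WT preleukemic sample 20 stood apart from samples 18 and 19. Its mean over the 14 neutrophil markers was 10.57 against 6.33 and 6.34, and its mean over the 14 proliferation genes was 10.37 against 8.60 and 8.74. WT results are therefore also given without it where it changes the call or moves the size clearly. Among Pax5+/- leukemias, samples 2 and 6 had the highest neutrophil means (10.32 and 10.88), sample 7 (6.24) lay within the Pax5+/- preleukemic range of 6.05 to 6.68, and sample 4 (6.04) just below it.

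The first comparison asked how these genes differ between leukemic and preleukemic Pax5+/- samples. Transcripts for most steps of glycolysis were higher in leukemia, led by the glucose transporter Slc2a3, lactate dehydrogenase Ldha, triosephosphate isomerase Tpi1 and phosphoglycerate kinase Pgk1. The kinases of pyruvate dehydrogenase moved in opposite directions: Pdk1 rose 4.11-fold and Pdk3 1.97-fold, and Pdk2 fell 4.89-fold. The pentose phosphate enzyme transketolase, Tkt, rose 2.33-fold, and in the TCA cycle the isocitrate dehydrogenase subunit Idh3a and fumarase Fh1 each rose 1.96-fold. Pfkfb3, which makes an activator of phosphofructokinase, fell 1.63-fold.

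Of the 39 measured members, 21 rose in Pax5+/- leukemia, which is 53.8% beside 28.0% of all 15542 genes tested, and 4 fell, which is 10.3% beside 36.5% (limma, Benjamini-Hochberg adjusted p under 0.05, two-sided). Leukemic and preleukemic values did not overlap for 13 higher members (background 11.7%) and 2 lower members (background 10.8%). The median log2 difference was 0.35 over the members and -0.05 over all genes tested. When every array was centred on the median of the tested genes, which moved leukemic against preleukemic values by 0.19 in Pax5+/- and 0.14 in WT samples, 17 members were higher and 10 lower, so that 63.0% of the called members were higher beside 84.0% as deposited. After this centring Idh2, Mdh1, Mdh2 and Pgd were no longer called, and Eno2, Hk1, Idh1, Ogdh, Slc16a1 and Slc2a1 were called lower. With the mean of the neutrophil and monocyte markers as a covariate (the myeloid covariate) 16 were higher and 8 lower. Hk2, Mdh1, Mdh2, Pdha1, Pgd and Pkm were then no longer called, and Hk3, Idh1, Ogdh, Slc16a3 and Taldo1 were called lower. With the mean of the proliferation genes as a covariate, 13 members were higher. The share of all genes called in such alternative fits was not counted, so their member counts have no background here. That mean ran from 8.99 to 9.58 before and from 9.63 to 10.58 in leukemia, without overlap. The part of proliferation in the other differences was not tested.

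The second comparison asked the same in WT mice, with 3 samples per stage. Of the 39 members, 14 rose (35.9%, background 17.9%) and 3 fell (7.69%, background 19.3%). Groups did not overlap for 15 higher members (background 21.1%) and 3 lower ones (background 23.3%). The median difference was 0.29 over members and -0.06 over all genes. All 14 members that rose in WT mice also rose in Pax5+/- mice, and Pdk2 and Pfkfb3 fell in both. In all, 33 of 39 members differed in the same direction. The same counts over all genes tested were not made, so this agreement is not read as particular to the members. The comparisons use different samples but share the estimate of spread. With the proliferation mean as a covariate, 4 members were higher in WT leukemia, and Idh3a, Mdh1, Ogdh, Pdk3, Pfkl, Pfkm, Pgk1, Sdha, Slc2a3, Suclg1 and Tkt lost their calls. Every WT rise or fall of these genes given below is from the fit without that covariate.

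**Figure D1:**
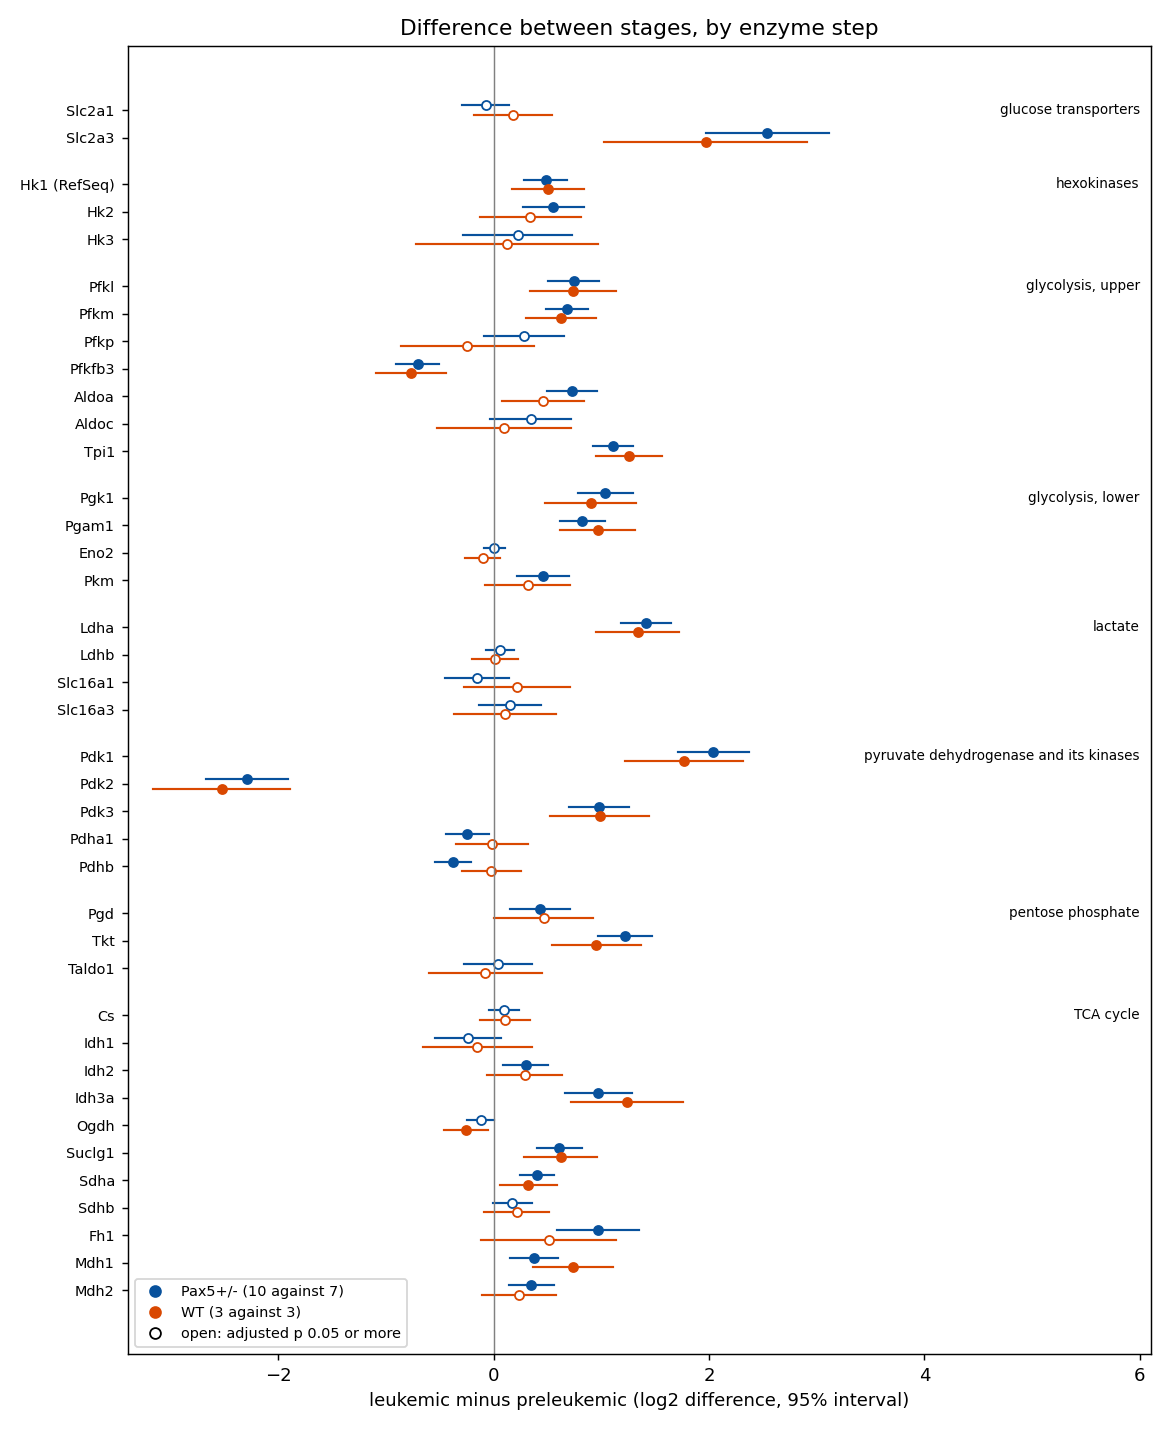
Leukemic minus preleukemic log2 difference (x axis) with its 95% interval for the 39 measured members, grouped by step, in Pax5+/- (blue, 10 against 7 samples) and WT mice (orange, 3 against 3). Filled points passed an adjusted p of 0.05, and Hk1 is shown by its RefSeq-tied probe set. Slc2a3, Pdk1, Ldha, Tkt and Tpi1 lie to the right and Pdk2 to the left in both genotypes.

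Short stretches of the promoters are shown for 5 members of large change, of which 4 rose and Pdk2 fell, so that their motif content can be seen. The windows are the 250 bases before the start in RefSeq's GRCm38.p6 annotation, written 5′ to 3′ on the gene's strand, with matches to ACGTG or GCGTG on either strand, and to CACGTG, in capitals. CACGTG is the E-box bound by MYC-MAX and other factors, and ACGTG and GCGTG are cores of the hypoxia response element. The palindrome CACGTG holds ACGTG on each strand and adds 2 matches to it. Where a gene has several windows the table's first is shown. The windows are Ldha (chr7:46845554-46845803, plus strand), Pgk1 (chrX:106186850-106187099, plus strand), Pdk1 (chr2:71872974-71873223, plus strand), Pdk2 (chr11:95041372-95041621, minus strand) and Tpi1 (chr6:124814159-124814408, minus strand).
Ldha: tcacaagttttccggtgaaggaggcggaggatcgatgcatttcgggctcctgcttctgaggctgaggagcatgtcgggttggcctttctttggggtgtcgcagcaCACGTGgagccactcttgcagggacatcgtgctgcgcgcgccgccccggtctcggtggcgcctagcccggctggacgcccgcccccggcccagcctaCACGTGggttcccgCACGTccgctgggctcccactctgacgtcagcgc
Pgk1: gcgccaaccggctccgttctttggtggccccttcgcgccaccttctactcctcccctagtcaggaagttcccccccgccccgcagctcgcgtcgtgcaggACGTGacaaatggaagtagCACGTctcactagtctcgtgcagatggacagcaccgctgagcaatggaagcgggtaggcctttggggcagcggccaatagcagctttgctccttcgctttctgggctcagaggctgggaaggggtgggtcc
Pdk1: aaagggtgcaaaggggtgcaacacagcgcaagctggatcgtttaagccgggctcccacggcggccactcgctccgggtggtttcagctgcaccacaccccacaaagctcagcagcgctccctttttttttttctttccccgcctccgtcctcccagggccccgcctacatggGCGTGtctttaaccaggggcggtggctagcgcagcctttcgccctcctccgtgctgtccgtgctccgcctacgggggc
Pdk2: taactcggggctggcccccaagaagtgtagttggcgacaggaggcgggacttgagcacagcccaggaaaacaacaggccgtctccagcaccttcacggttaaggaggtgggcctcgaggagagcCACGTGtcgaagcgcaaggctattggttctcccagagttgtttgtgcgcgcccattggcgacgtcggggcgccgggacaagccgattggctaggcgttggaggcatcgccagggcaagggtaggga
Tpi1: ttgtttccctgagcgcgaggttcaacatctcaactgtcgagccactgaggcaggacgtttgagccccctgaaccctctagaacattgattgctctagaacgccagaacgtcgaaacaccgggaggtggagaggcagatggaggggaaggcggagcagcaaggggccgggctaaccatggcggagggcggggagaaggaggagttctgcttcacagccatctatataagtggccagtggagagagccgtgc

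The Ldha window held 2 CACGTG and 5 ACGTG matches, and the Pgk1 window 2 ACGTG matches. Tpi1, which rose slightly more than Pgk1, had none of the 3. Pdk1, which rose, had a single GCGTG, while Pdk2, which fell, had 1 CACGTG and 2 ACGTG. Of the 37 measured members in the promoter table, all but Slc2a3 and Idh3a, 6 had CACGTG in a window, where 6.86% of all 27025 genes in the table did. ACGTG was in 18 of the 37 members (18.5% of genes) and GCGTG in 26 (30.9% of genes). Among the 19 members that rose in Pax5+/- leukemia 2 had CACGTG and 10 ACGTG, among the 4 that fell 2 and 3, and among the 14 not called 2 and 5. A gene was counted when any of its windows held the motif, and genes differ in their number of windows. These are matches of letters, neither base composition nor the number of windows was matched, and a match is not a bound site.

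The glucose transporters differed from each other. Slc2a3 encodes GLUT3, a high-affinity transporter also abundant in neutrophils and platelets. Its log2 level lay between 6.90 and 7.11 in Pax5+/- preleukemic samples (median 7.08) and between 8.80 and 10.47 in Pax5+/- leukemias (median 9.56). Each leukemia was above each preleukemic sample, the highest being sample 6 and the lowest sample 9. The difference was 2.54 (SE 0.27, 5.82-fold, adjusted p = 9.85e-08). In WT mice the level was 6.65, 7.11 and 9.24 before leukemia (samples 18, 19 and 20) and 9.33, 9.85 and 9.73 in leukemia (samples 14, 15 and 17). Only sample 20 of the preleukemic arrays came near the leukemias, and the WT difference was 1.97 (SE 0.45, 3.92-fold, adjusted p = 0.00216), or 6.76-fold without sample 20. Fitted on the 6 WT samples alone it did not pass (adjusted p = 0.0631).

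Slc2a3 moved beside markers of other cells. The mean of the 5 megakaryocyte markers was 6.61 to 6.82 in Pax5+/- preleukemic samples and 8.20 to 11.21 in Pax5+/- leukemias, and leukemia 9, with the lowest marker mean, also had the lowest Slc2a3. In leukemia 4, whose neutrophil mean of 6.04 was below every preleukemic sample, Slc2a3 was 10.12, while its megakaryocyte mean of 11.21 was the highest. Sample 20, with Slc2a3 at 9.24, had a megakaryocyte mean of 6.70 and a neutrophil mean of 10.57. Without Pax5+/- leukemias 2, 6 and 7, a set chosen after seeing the data, the Pax5+/- difference was 5.47-fold. Leukemia 7 had a neutrophil mean of only 6.24, so this set does not single out neutrophil content. With the mean of the neutrophil and monocyte markers as a covariate the Pax5+/- difference was 1.70 (3.25-fold, adjusted p = 5.75e-05). The WT difference was 2.08-fold with that covariate (adjusted p = 0.054), 2.39-fold with the proliferation mean (adjusted p = 0.178) and 6.44-fold with array weights. The part of megakaryocytes in the Slc2a3 values was not tested.

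Slc2a1 encodes GLUT1, the broadly expressed transporter, and it did not pass the test. Its level was 8.66 to 9.47 (median 8.80) in Pax5+/- leukemias and 8.72 to 9.36 (median 8.95) before, with a difference of -0.07 (95% interval -0.29 to 0.15, adjusted p = 0.56). In WT mice it was 8.73, 9.07 and 8.86 in leukemia and 8.77, 8.79 and 8.55 before (difference 0.18, interval -0.18 to 0.54). The 2 probe sets cannot be set against each other as levels, but their difference within a sample can be followed: Slc2a1 minus Slc2a3 was 1.75 to 2.26 in Pax5+/- preleukemic samples and -1.35 to 0.11 in Pax5+/- leukemias. It was -0.87 to -0.60 in WT leukemias, and before leukemia it was 1.68 and 2.12 in samples 19 and 18 and -0.69 in sample 20.

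**Figure D2:**
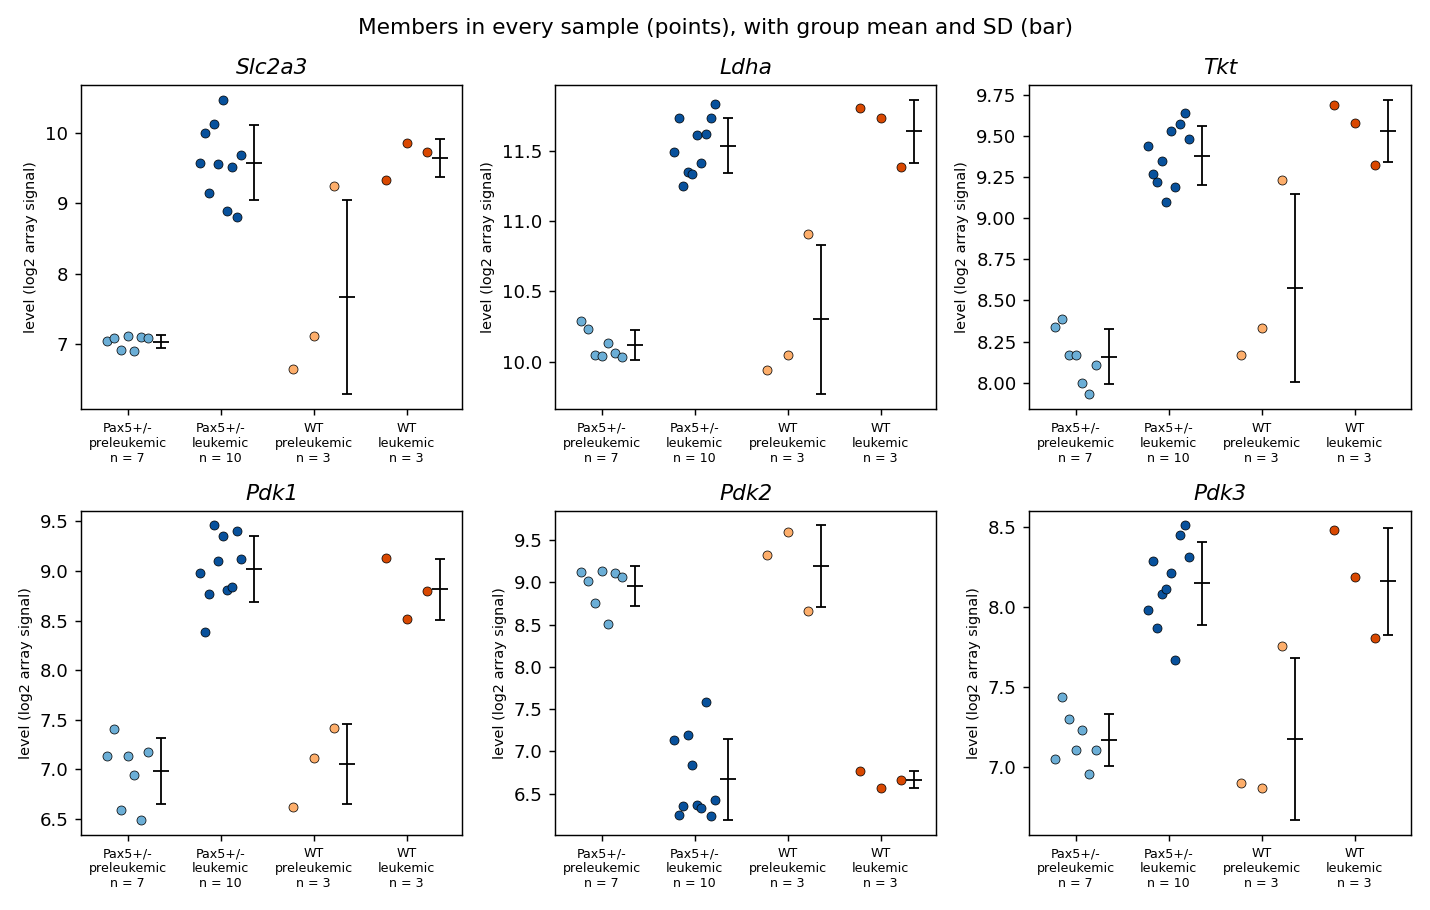
Log2 level (y axis) of Slc2a3, Ldha, Tkt, Pdk1, Pdk2 and Pdk3 in every sample (points), with the mean and SD of each group beside them (bars). In all 6 panels the 10 Pax5+/- leukemias are apart from the 7 preleukemic samples. For Slc2a3, Ldha, Tkt, Pdk1 and Pdk3 the highest WT preleukemic point is sample 20.

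Hexokinases trap glucose in the cell as glucose 6-phosphate. Hk2, the inducible form, was 6.43 to 7.52 (median 6.84) in Pax5+/- leukemias and 6.03 to 6.54 (median 6.26) before, a difference of 0.56 (SE 0.14, 1.47-fold, adjusted p = 0.0014). Samples 8 and 3, at 6.43 and 6.47, lay below the highest preleukemic value. In WT mice Hk2 was 7.20, 6.76 and 6.64 in leukemia and 6.20, 6.39 and 6.99 before, and did not pass (adjusted p = 0.239), but was at the threshold without sample 20 (1.49-fold, adjusted p = 0.05). With the myeloid covariate the Pax5+/- difference was 0.19 (adjusted p = 0.326).

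Hk1, the housekeeping form, depended on the probe set. The probe set chosen by the rule was tied in the annotation to a single accession that other probe sets share with a ribosomal protein gene, and its values ran from 12.71 to 13.09 over the samples of all groups. A second Hk1 probe set, tied to RefSeq transcripts, correlated with it at r = -0.34 over the 23 arrays, given as a description. By the first, Hk1 differed by -0.07 (adjusted p = 0.141). By the second, picked after both had been seen, Hk1 was 8.01 to 8.65 in Pax5+/- leukemias and 7.61 to 7.96 before, without overlap, and the difference was 0.48 (SE 0.10, 1.40-fold, adjusted p = 2.13e-04). It was 0.51 in WT mice (1.42-fold, adjusted p = 0.0175). The counts of members use the first.

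Hk3, the form of myeloid cells, was near the array median in most samples. It was 5.82 to 7.62 (median 6.03) in Pax5+/- leukemias and 6.00 to 6.15 before (difference 0.22, adjusted p = 0.432). The high values were those of leukemias 2 and 6 (7.62 and 7.09), WT leukemias 15 and 17 (6.82 and 6.83) and WT preleukemic sample 20 (7.66), all with neutrophil means of 9.76 or more. With the myeloid covariate Hk3 was called lower in Pax5+/- (-0.77, adjusted p = 9.16e-05) and in WT leukemia (-0.95, adjusted p = 9.87e-04). The part of neutrophils alone in the high values was not tested. Without leukemias 2, 6 and 7, a set chosen after seeing the data, the Pax5+/- difference of Hk3 was -0.03. The set includes leukemia 7, whose neutrophil mean was only 6.24, so it does not single out neutrophil content. The WT difference was 0.13 and, without sample 20, 0.69 (1.62-fold, adjusted p = 0.132).

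In upper glycolysis 4 of 7 measured members rose and 1 fell in Pax5+/- leukemia, where 28.0% of all genes tested rose and 36.5% fell. In WT leukemia 3 rose and 1 fell (all genes 17.9% and 19.3%). With so few members per step, such counts describe these genes only. Phosphofructokinase commits sugar to glycolysis, and its liver and muscle forms rose. Pfkl was 7.94 to 8.98 (median 8.45) in Pax5+/- leukemias and 7.47 to 7.92 (median 7.68) before (difference 0.74, 1.67-fold, adjusted p = 1.37e-05). Pfkm was 7.06 to 7.96 (median 7.62) and 6.70 to 7.03 (median 6.85), a difference of 0.68 (1.60-fold). In WT leukemia both rose, Pfkl by 1.67-fold (8.75, 8.57 and 8.34 against 7.80, 7.76 and 7.89) and Pfkm by 1.54-fold, without overlap.

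The platelet form Pfkp did not pass, with 7.07 to 8.57 in Pax5+/- leukemias and 7.10 to 7.60 before (difference 0.28, adjusted p = 0.172). Within samples, Pfkp minus Pfkl had a median of -0.915 in Pax5+/- leukemias (-1.56 to 0.15) and -0.33 before (-0.75 to -0.02). Its highest leukemic value was in sample 2, which was also the highest of Aldoa, and in WT leukemias Pfkp ranged from 7.02 in sample 17 to 8.48 in sample 15.

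Pfkfb3 makes fructose 2,6-bisphosphate, the strongest activator of phosphofructokinase, and it went the other way. It was 7.77 to 8.51 (median 8.31) in Pax5+/- leukemias and 8.80 to 9.06 (median 8.94) before (difference -0.71, SE 0.10, adjusted p = 2.09e-06). No leukemia reached a preleukemic value. Among WT samples it was 8.25, 7.76 and 8.00 in leukemia and 8.83, 8.86 and 8.62 before (difference -0.77, 1.70-fold, adjusted p = 8.33e-04).

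Aldolase cleaves the 6-carbon sugar. Aldoa, its main form in most tissues, was 10.56 to 11.59 (median 11.05) in Pax5+/- leukemias and 10.16 to 10.47 before, without overlap (difference 0.73, 1.65-fold). In the WT groups it was 11.08, 11.42 and 10.96 against 10.61, 10.77 and 10.71, again without overlap, but did not pass (adjusted p = 0.0559), and it passed without WT leukemia 17 (adjusted p = 0.044) and also in fits without Pax5+/- leukemia 2 or 3 (adjusted p = 0.0263 and 0.0361). Aldoc, the brain form, was below the array median in every preleukemic sample and did not pass (5.23 to 6.91 in Pax5+/- leukemias, highest in sample 4), although it did without leukemia 7 (0.42, adjusted p = 0.038).

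Tpi1 interconverts the products of aldolase. It was 10.82 to 11.38 (median 11.01) in Pax5+/- leukemias and 9.65 to 10.19 (median 9.98) before, a difference of 1.11 (SE 0.09, 2.16-fold, adjusted p = 1.64e-09). In WT mice it was 11.33, 11.35 and 11.08 against 9.77, 9.96 and 10.26 (1.26, 2.39-fold, adjusted p = 2.73e-06), or 2.62-fold without sample 20. The groups did not overlap in either genotype.

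In lower glycolysis 3 of 4 measured members rose in Pax5+/- leukemia (all genes 28.0%) and 2 in WT leukemia (all genes 17.9%). Pgk1, which makes the first ATP of the pathway, was 10.03 to 10.77 (median 10.41) in Pax5+/- leukemias and 9.11 to 9.51 (median 9.41) before (difference 1.04, SE 0.12, 2.05-fold, adjusted p = 3.74e-07). Among WT samples it was 10.69, 10.72 and 10.26 in leukemia and 9.38, 9.44 and 10.15 before. Every leukemia was higher than every preleukemic sample, with sample 20 close to leukemia 17, and the difference was 0.90 (1.87-fold, adjusted p = 0.00186) or 2.21-fold without sample 20.

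Pgam1, the phosphoglycerate mutase of non-muscle tissue, was 9.32 to 10.09 (median 9.76) in Pax5+/- leukemias and 8.72 to 9.04 before (difference 0.82, 1.77-fold). It was 9.96, 10.20 and 9.78 in WT leukemias and 8.94, 8.95 and 9.15 before (0.97, 1.95-fold). Both genes have many processed copies in the genome and 3 probe sets each, whose values followed each other (r of 0.9955 or more over the 23 arrays, as a description), so which copy gives the signal is uncertain. Pkm, whose pyruvate kinase makes pyruvate, rose by less, with 9.58 to 10.38 in Pax5+/- leukemias and 9.50 to 9.68 before (0.46, 1.37-fold, adjusted p = 0.00168), with 0.21 under the myeloid covariate (adjusted p = 0.244). The WT difference did not pass, but did without sample 20 (0.51, adjusted p = 0.0422). The array does not tell its M1 and M2 forms apart here. Eno2, the neuronal enolase, was below the array median in all 23 samples (5.22 to 5.62).

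Ldha makes lactate from pyruvate and was among the largest changes of the list. It was 11.25 to 11.83 (median 11.55) in Pax5+/- leukemias and 10.03 to 10.29 (median 10.06) before, a difference of 1.42 (SE 0.11, 2.67-fold, adjusted p = 1.25e-09). The lowest leukemia, sample 3, was well above the highest preleukemic sample, 11. In the WT groups it was 11.80, 11.73 and 11.38 in leukemia and 9.94, 10.05 and 10.91 before (1.34, 2.53-fold, adjusted p = 1.92e-05), or 3.12-fold without sample 20.

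The other lactate genes did not pass in either genotype in the fit of the values as deposited, without a covariate. Ldhb, the form that favours pyruvate, was below the array median in all 23 samples, so that Ldha minus Ldhb moved with Ldha, from 4.27 to 4.71 before to 5.62 to 6.29 in Pax5+/- leukemia. Slc16a1, the lactate transporter MCT1, was 10.37 to 11.58 in Pax5+/- leukemias and 11.03 to 11.32 before (difference -0.16, 95% interval -0.45 to 0.14). Slc16a3, the exporter MCT4, was 6.53 to 7.56 against 6.54 to 6.76 (0.15, interval -0.14 to 0.44), and its highest leukemia was sample 6, which had the highest neutrophil mean. With the myeloid covariate Slc16a3 was called lower in Pax5+/- (-0.35, adjusted p = 0.0127) and in WT leukemia (-0.44, adjusted p = 0.0427).

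**Figure D3:**
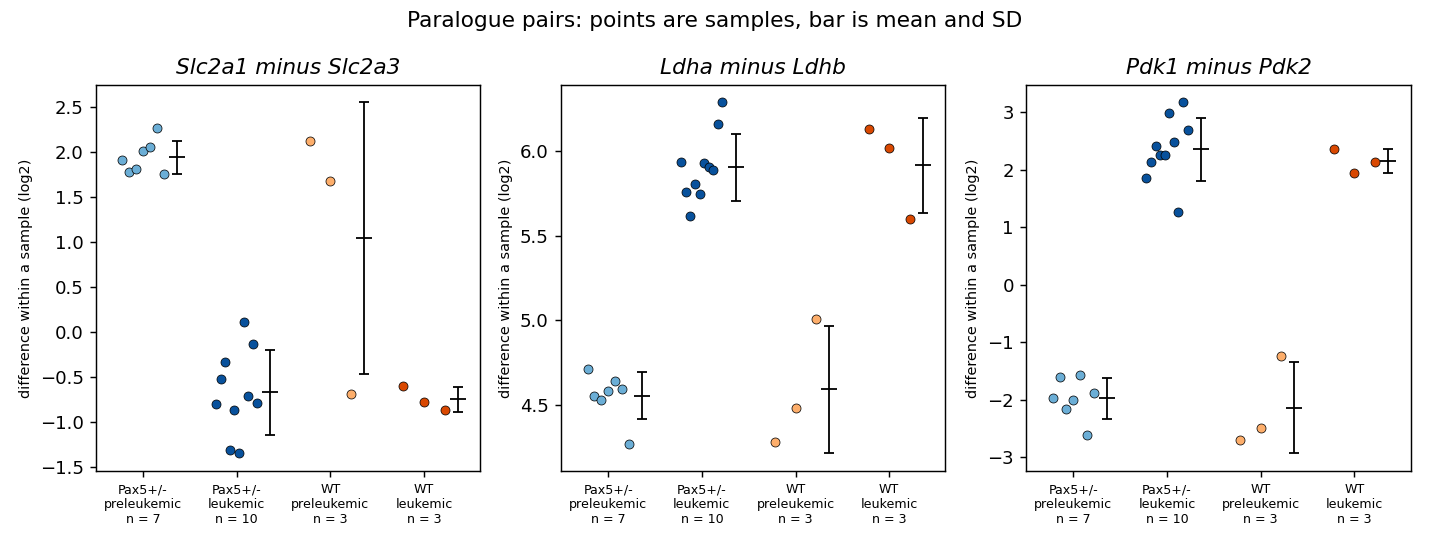
Difference of 2 log2 signals within each sample (y axis) for Slc2a1 minus Slc2a3, Ldha minus Ldhb and Pdk1 minus Pdk2, with points for samples and bars for mean and SD. Levels of different probe sets are not comparable, so only shifts between samples are read. Pdk1 minus Pdk2 is -2.70 to -1.24 in all preleukemic samples and 1.26 to 3.17 in all leukemias.

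At the pyruvate dehydrogenase step all 5 measured members passed in Pax5+/- leukemia, 2 higher and 3 lower (all genes 28.0% and 36.5%). Pdk1, a kinase known as a target of hypoxia signalling and MYC, was 8.39 to 9.46 (median 9.04) in Pax5+/- leukemias and 6.49 to 7.41 (median 7.13) before, a difference of 2.04 (SE 0.16, adjusted p = 9.69e-10). Leukemia 2 was the lowest and leukemia 4 the highest. In WT mice Pdk1 was 9.13, 8.52 and 8.80 in leukemia and 6.62, 7.11 and 7.42 before (1.77, SE 0.26, 3.40-fold, adjusted p = 3.97e-05), or 3.87-fold without sample 20.

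Pdk2 showed the opposite picture. It was 6.23 to 7.58 (median 6.40) in Pax5+/- leukemias and 8.51 to 9.14 (median 9.06) before, a difference of -2.29 (SE 0.18, adjusted p = 1.36e-09). Leukemias 8, 4 and 1 held the highest leukemic values (7.58, 7.20 and 7.13), still below every preleukemic sample. In WT mice it was 6.77, 6.57 and 6.66 in leukemia and 9.32, 9.60 and 8.66 before (-2.53, SE 0.30, 5.76-fold lower, adjusted p = 3.27e-06). Sample 20 was the lowest of the WT preleukemic samples, and without it the fall was 6.93-fold.

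Pdk3 was 7.67 to 8.51 (median 8.16) in Pax5+/- leukemias and 6.96 to 7.44 (median 7.11) before (0.98, SE 0.13, adjusted p = 2.74e-06). Among WT samples it was 8.48, 8.19 and 7.81 against 6.90, 6.87 and 7.76 (0.98, 1.98-fold, adjusted p = 0.00185), or 2.42-fold without sample 20. Pdk1 minus Pdk2, which does not depend on a scaling of the arrays, had a median of -1.98 before and 2.34 in Pax5+/- leukemia, and -2.49 and 2.14 in WT mice. Pdk1 minus Pdk3 also shifted, from a median of -0.03 before to 0.945 in Pax5+/- leukemia, with leukemia 2 at 0.10 just above the highest preleukemic value of 0.09.

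The subunits that these kinases act on or beside fell slightly in Pax5+/- leukemia. Pdha1, the catalytic subunit that the kinases phosphorylate, was 8.92 to 9.77 against 9.61 to 9.87 (-0.24, adjusted p = 0.0328), and the call was lost without leukemia 3 (adjusted p = 0.0543), preleukemic sample 13 (0.066) or 22 (0.0611), and was -0.03 with the myeloid covariate (adjusted p = 0.88). Pdhb, its partner subunit, was 7.86 to 8.16 against 8.11 to 8.67 (-0.37, 1.30-fold lower, adjusted p = 4.33e-04). In WT mice both differed by -0.02 and did not pass.

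In the pentose phosphate branch Tkt and Pgd rose in Pax5+/- leukemia. Tkt, of the non-oxidative arm, was 9.10 to 9.64 (median 9.40) in leukemia and 7.93 to 8.39 (median 8.17) before, without overlap (1.22, SE 0.12, adjusted p = 2.51e-08). In the WT groups it was 9.69, 9.58 and 9.32 in leukemia and 8.17, 8.33 and 9.23 before (0.95, 1.94-fold, adjusted p = 9.19e-04), or 2.43-fold without sample 20. Fitted on the WT samples alone it just missed the threshold (adjusted p = 0.0517).

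Pgd, which releases NADPH in the oxidative arm, was 9.26 to 10.27 (median 9.54) against 9.10 to 9.30 (0.43, 1.35-fold, adjusted p = 0.00817), highest in leukemia 2. With the mean of the neutrophil and monocyte markers as a covariate its difference was -0.0081 (adjusted p = 0.965). In WT mice it did not pass (0.46, adjusted p = 0.105), and without sample 20, which was at 10.06 beside 9.16 and 9.06, it did (0.78, 1.72-fold, adjusted p = 0.00434). Taldo1, transaldolase, did not pass, at 7.42 to 8.94 against 7.63 to 8.02 (0.04, adjusted p = 0.817). It was called lower in Pax5+/- leukemia with the myeloid covariate (-0.41, adjusted p = 0.0427).

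In the TCA cycle 7 of 11 members rose and 0 fell in Pax5+/- leukemia (all genes 28.0% and 36.5%). In WT leukemia 4 rose and 1 fell (all genes 17.9% and 19.3%). Idh3a, the catalytic subunit of the NAD-linked isocitrate dehydrogenase, was 8.76 to 9.91 (median 9.16) against 7.86 to 8.58 (median 8.29), without overlap (0.97, SE 0.15, adjusted p = 1.34e-05). Among WT samples it was 9.64, 9.74 and 9.23 against 8.12, 8.03 and 8.75 (1.24, 2.36-fold), or 2.75-fold without sample 20. Fh1, fumarase, was 9.06 to 10.47 (median 9.83) against 8.42 to 9.20 (median 8.80) in Pax5+/- mice (0.97, SE 0.18, adjusted p = 1.16e-04), and leukemias 3 and 4 (9.06 and 9.12) lay within the preleukemic range. It did not pass in WT mice (0.51, adjusted p = 0.189).

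Suclg1, a subunit of succinyl-CoA ligase, rose 1.53-fold in Pax5+/- leukemia (8.88 to 9.41 against 8.25 to 8.79) and 1.54-fold in WT leukemia. Its WT call was lost with the myeloid covariate (0.48, adjusted p = 0.0668). Sdha, the flavoprotein of succinate dehydrogenase, rose 1.32-fold, while its iron-sulfur partner Sdhb differed by 0.17 (adjusted p = 0.0906) and passed without leukemia 4 (adjusted p = 0.049) or preleukemic sample 11 (0.0326). Malate dehydrogenases rose too, Mdh1 by 0.37 (adjusted p = 0.00505) and Mdh2 by 0.35 (adjusted p = 0.00446), and in WT mice Mdh1 rose by 0.74, from 10.01, 10.04 and 10.46 to 11.03, 10.99 and 10.70 (1.67-fold, adjusted p = 0.00321), or 1.84-fold without sample 20. Mdh1, Mdh2, Idh2 and Pgd were not called in Pax5+/- mice after median centring, nor were Mdh1, Mdh2 and Pgd with the myeloid covariate.

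Of the NADP-linked isocitrate dehydrogenases, the mitochondrial Idh2 rose 1.23-fold in Pax5+/- leukemia (10.05 to 10.94 against 9.95 to 10.31, adjusted p = 0.014), and the cytosolic Idh1 was 7.23 to 8.48 against 7.99 to 8.51 (-0.24, adjusted p = 0.156), lowest in leukemia 3. With the myeloid covariate Idh1 was called lower in Pax5+/- leukemia (-0.62, adjusted p = 0.00586). Idh1 minus Idh2 had a median of -2.455 (-3.09 to -1.77) in leukemia and -1.76 (-2.21 to -1.59) before, with overlapping ranges. Cs, the entry enzyme of the cycle, differed by 0.10 (95% interval -0.04 to 0.24). Ogdh, of the oxoglutarate dehydrogenase complex, differed by -0.12 (adjusted p = 0.0771) in Pax5+/- mice, which passed without leukemia 2 (adjusted p = 0.0401) or preleukemic sample 23 (0.0471). With the myeloid covariate Ogdh was also called lower there (-0.20, adjusted p = 0.0461).

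The weakest WT calls were Sdha (0.32, adjusted p = 0.0494) and Ogdh (-0.25, adjusted p = 0.0469). Sdha was not called in 24 and Ogdh in 19 of the alternative fits, among them those without any of WT samples 14, 15 or 19 for either gene, without 18 for Sdha and without 17 or 20 for Ogdh.

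**Figure D4:**
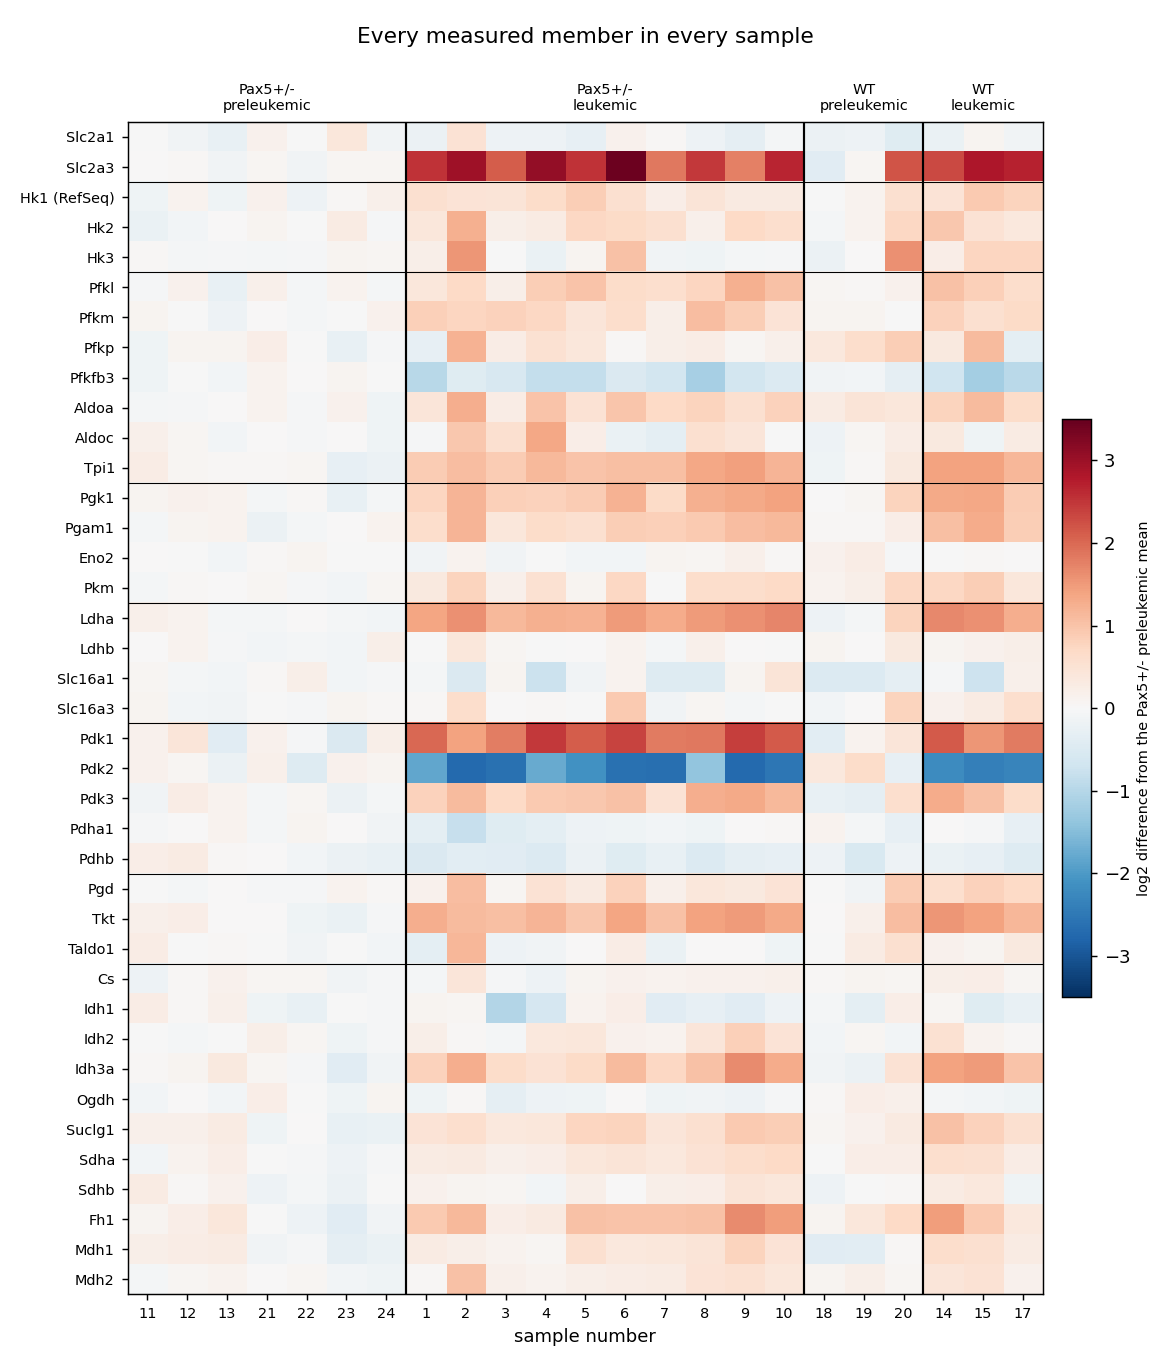
Log2 difference of each measured member from its Pax5+/- preleukemic mean (colour, red higher and blue lower) in each of the 23 samples (columns, by group and sample number), with members in rows by step. Slc2a3, Ldha, Pdk1, Pdk3, Tkt and Tpi1 are red and Pdk2 and Pfkfb3 blue in all 13 leukemias. WT preleukemic sample 20 is red for Slc2a3, Hk3, Ldha, Pgd and Tkt.

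The median SD of the members was 0.26 over Pax5+/- leukemias and 0.13 over Pax5+/- preleukemic samples, beside 0.17 and 0.12 for all genes tested. With 3 samples a group it was 0.23 over WT leukemias and 0.23 over WT preleukemic samples, which include sample 20, beside 0.13 and 0.15 for all genes. Sample 2 held the highest leukemic value for 14 of the 39 members and sample 9 for 11, while sample 3 held the lowest for 13 (ties counted to the lower sample number). In sample 9, Eno2, Pfkl, Tpi1, Pdk3, Tkt, Idh2, Idh3a, Suclg1, Sdhb, Fh1 and Mdh1 were highest, and its megakaryocyte mean of 8.20 was the lowest of the 10 leukemias and its proliferation mean of 10.58 the highest. In WT preleukemic samples, sample 20 was the highest for 26 of 39 members and sample 18 the lowest for 23.

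**Figure D5:**
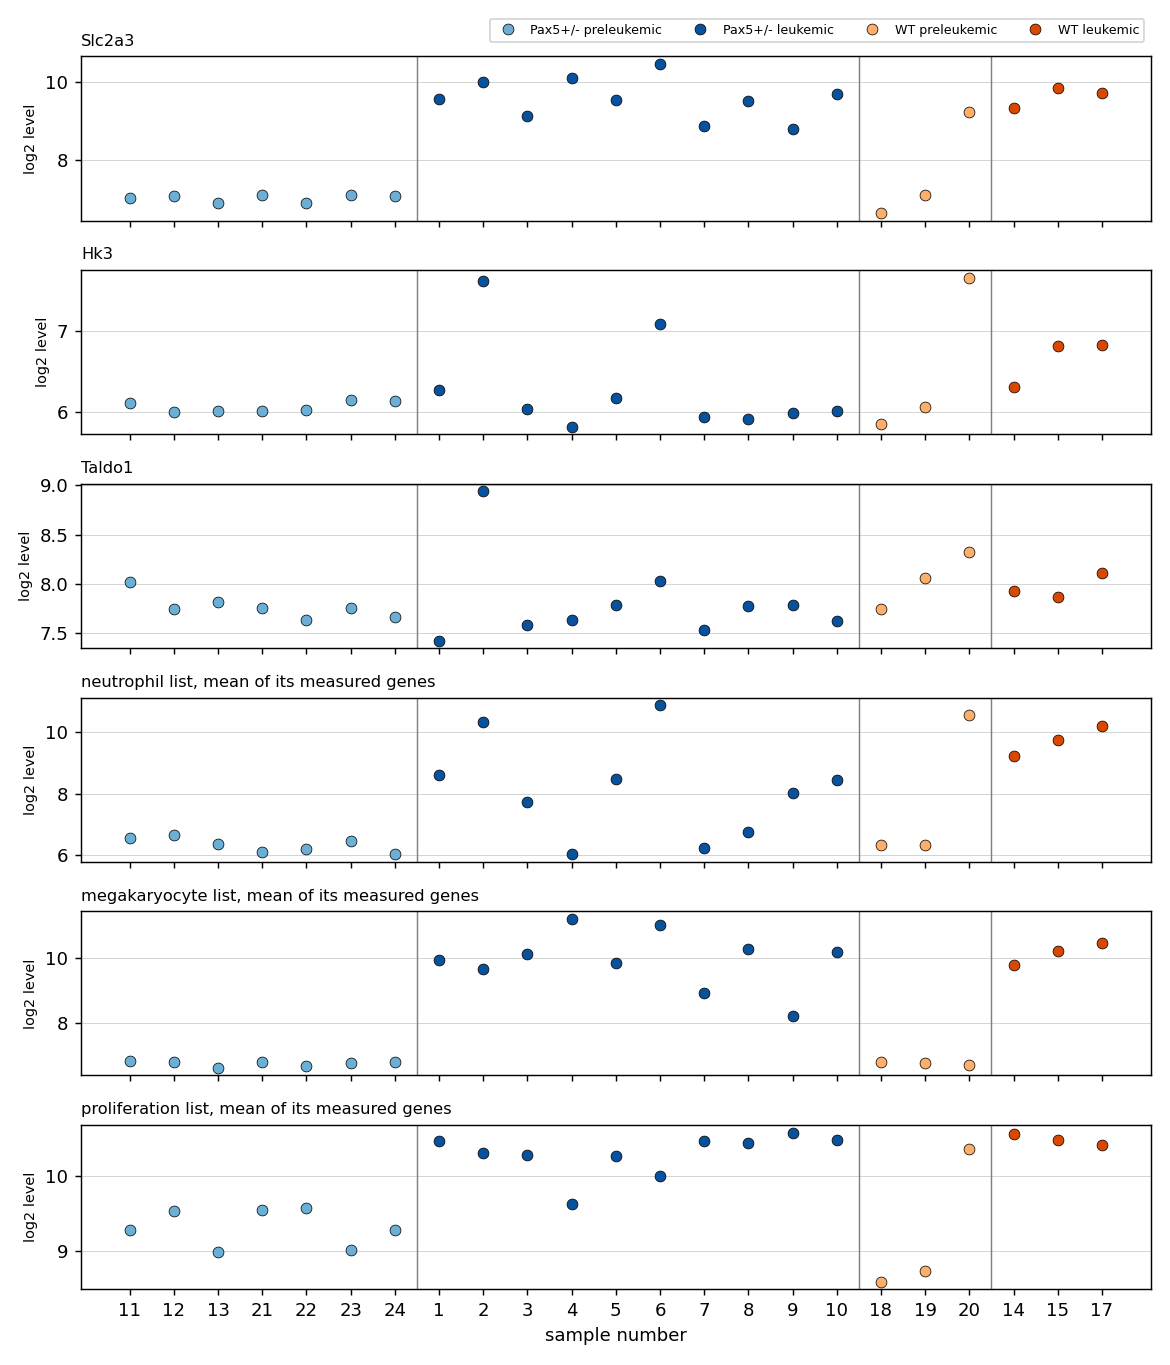
Log2 level (y axis) of Slc2a3, Hk3 and Taldo1 and mean log2 level of the neutrophil, megakaryocyte and proliferation lists in each sample (x axis, by sample number), coloured by group. Hk3 is high in samples 2, 6 and 20, which have the 3 highest neutrophil means. Slc2a3 is high in all 13 leukemias and in sample 20, and leukemia 4 has high Slc2a3 with a neutrophil mean of 6.04.

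The genotype comparisons asked whether the members differ between Pax5+/- and WT mice at the same stage, and whether the change with leukemia differs. No member passed in any of the 3. Before leukemia 0 of 39 were called (background 0.232% higher and 0.392% lower), with 6 at an unadjusted p under 0.05, as were 8.97% of all genes tested. The smallest p were those of Pdhb (0.30 higher in Pax5+/-, adjusted p = 0.365), Tkt (-0.42, adjusted p = 0.42) and Aldoa (-0.39, adjusted p = 0.426). Aldoa was 10.16 to 10.47 in Pax5+/- and 10.61 to 10.77 in WT preleukemic samples, without overlap, whereas the Tkt difference includes sample 20 at 9.23. In a fit of the preleukemic samples alone 1 member was higher and 2 lower: Slc16a1 (0.42, adjusted p = 0.0213), Aldoa (-0.39, adjusted p = 0.033) and Pfkp (-0.62, adjusted p = 0.032). The share of all genes called in that fit was not counted. The background above is from the fit of all samples, so these calls are not to be set against it.

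In leukemia 0 of 39 members were called (background 0.0257% higher and 0.315% lower), and 0 had an unadjusted p under 0.05, where 5.89% of all genes did. The smallest p were those of Pfkfb3 (0.23, SE 0.13, adjusted p = 0.916), Pgam1 (-0.25, adjusted p = 0.919) and Tpi1 (-0.21, adjusted p = 0.925). For the interaction 0 were called (background 0.0965% higher and 0.0% lower), with 1 at an unadjusted p under 0.05 (7.19% of all genes), Pdhb (-0.35, adjusted p = 0.656), followed by Mdh1 (-0.36, adjusted p = 0.773) and Pfkp (0.52, adjusted p = 0.829). With 3 WT samples per stage these intervals are wide, and a p that misses the threshold does not show that the genotypes are alike.

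Further genes of the same pathways were counted from lists, to be read beside the 28.0% of all genes that rose and 36.5% that fell in Pax5+/- leukemia and the 17.9% and 19.3% in WT leukemia. The glycolysis, pentose phosphate and regulator lists lie near these shares in Pax5+/- mice. In the transport list 6 of 12 tested genes rose and 1 fell in Pax5+/- leukemia, and 2 rose and 0 fell in WT leukemia. Slc16a7, the monocarboxylate transporter MCT2, had the largest change, from 5.41 to 5.91 before to 7.58 to 10.85 in Pax5+/- leukemia (3.68, 12.9-fold) and 8.75-fold in WT mice. Bsg, the chaperone of MCT1 and MCT4, rose 1.46-fold and 1.66-fold. Slc2a6 rose 2.46-fold in Pax5+/- leukemia.

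Of 18 other glycolysis genes, 6 rose and 6 fell in Pax5+/- leukemia, and 4 rose and 3 fell in WT leukemia. G6pc3, a glucose 6-phosphatase, was 9.00 to 9.32 against 7.64 to 7.91 (2.73-fold) and rose 2.19-fold in WT mice. The phosphoglucomutase Pgm1 rose 2.49-fold and 2.46-fold, while Pgm2l1, which makes glucose 1,6-bisphosphate, fell 3.53-fold and 2.10-fold. Of the other bifunctional enzymes beside Pfkfb3, Pfkfb4 rose 2.02-fold and Pfkfb2 fell 1.49-fold in Pax5+/- leukemia. In the pyruvate dehydrogenase list 3 of 8 rose and 0 fell in Pax5+/- leukemia, namely Dld (1.27-fold), Pdp1 (1.33-fold) and the kinase Pdk4 (1.26-fold), and in WT leukemia 1 rose, Dld.

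Of 7 further pentose phosphate genes, 2 rose and 3 fell in Pax5+/- leukemia, and 1 rose and 3 fell in WT mice. Rpia, which makes ribose 5-phosphate, was 7.60 to 8.46 against 9.00 to 9.48 (2.23-fold lower) and 2.07-fold lower in WT leukemia. Pgls, the lactonase of the oxidative arm, was 2.24-fold and 1.84-fold lower. Prps1, which activates ribose phosphate for nucleotide synthesis, rose 1.38-fold and 1.65-fold.

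Of 18 further TCA cycle genes, 8 rose in either genotype, and 2 fell in Pax5+/- and 1 in WT leukemia. Pck2, mitochondrial phosphoenolpyruvate carboxykinase, was 8.73 to 10.25 against 7.81 to 8.30 (3.39-fold) and rose 2.96-fold in WT mice. Suclg2, the partner of Suclg1, rose 2.17-fold and 2.16-fold, and the aspartate aminotransferase Got2 1.66-fold and 1.64-fold. Sdhaf2, which attaches the flavin to Sdha, fell 2.01-fold and 2.08-fold, although Sdha itself rose.

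Among 22 regulators of glycolysis 5 rose and 7 fell in Pax5+/- leukemia, and 4 rose and 8 fell in WT leukemia. Myc was 9.07 to 11.95 in Pax5+/- leukemias and 7.19 to 8.03 before. In the WT groups it ranged from 9.96 to 11.80 in leukemia and from 7.72 to 9.35 before, the highest preleukemic value being that of sample 20 and the lowest leukemia sample 17. Hif1a, the oxygen-regulated factor, was lower in Pax5+/- leukemia (7.64 to 9.29 against 9.29 to 9.77, 2.12-fold). Its relative Epas1, also a gene of endothelium, was higher (4.03-fold). In the same comparison 9 of 10 stromal and endothelial markers rose, such as Sparc (log2 difference 4.00), and Pecam1 fell. Ppargc1a, a coactivator of mitochondrial genes, fell 2.67-fold and 2.63-fold. Its signal was low, at 4.65 to 5.01 in Pax5+/- and 4.75 to 4.99 in WT leukemias, below the array medians. Before leukemia it was near them, at 6.03 to 6.50 and 5.95 to 6.55, which limits what these folds show. Of 15 hypoxia response genes outside glycolysis 2 rose (Ero1a and Ndrg1) and 6 fell, among them Kdm3a, Mxi1 and Adm, in Pax5+/- leukemia, and 1 rose and 4 fell in WT leukemia.

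A pair of genes from these lists passed a genotype test. Mtor was 8.60 to 8.80 in Pax5+/- and 9.12 to 9.34 in WT preleukemic samples (-0.50, adjusted p = 6.1e-04), and 8.53 to 8.83 and 8.53 to 8.82 in leukemia, so the interaction also passed (0.53, adjusted p = 0.0297). Pklr, the pyruvate kinase of red cells and liver, was lower in Pax5+/- than in WT leukemias (-0.48, adjusted p = 0.0262), at 5.88 to 6.13 against 6.02, 6.70 and 6.70. The erythroid markers Klf1 (-1.04) and Slc4a1 (-3.15) were lower in the same comparison, and the erythroid marker mean was 6.56 to 7.12 in Pax5+/- leukemias and 7.08, 9.05 and 9.15 in WT leukemias 14, 15 and 17. The part of erythroid cells in the Pklr difference was not tested.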

How the data were processed

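Total RNA of bone marrow cells was extracted with Trizol, biotin-labelled and hybridised, 1 array per sample, per the labels' protocols. The deposited table holds log2 signals for 28944 probe sets, with values of 3.65 to 14.2. The submitters' processing notes name Transcriptome Analysis Console, and how background was corrected or signals were normalized is not given in the sources used here. Of the probe sets, 21789 had 1 gene symbol in the platform annotation, 1621 several and 5534 none. Each symbol took its own probe set of highest mean, which gave 19938 genes, and 4396 not above the 30th percentile of their array on at least 3 arrays were left out. All 39 measured members passed this filter.

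Group means of all 23 samples were fitted with limma 3.58.1 in R 4.3.3 (eBayes with intensity trend), and p-values were adjusted over 15542 genes by Benjamini-Hochberg, with a two-sided threshold of 0.05. The code was tested on simulated data. Tables and plots used Python 3.11.15, pandas 2.3.3, SciPy 1.17.1 and matplotlib 3.10.9. Beyond the source names in the labels, nothing states that samples of a group came from separate mice, so p-values measure only the spread between these samples, which may be technical. Alternatives covered filters, priors, array weights, scaling, probe set choice, marker and sex-gene covariates, blocks and leaving out samples.

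Values are given for the members of largest rise and fall in each comparison, both members of each paralogue pair, the smallest p of each genotype comparison and up to 3 passing genes per direction of each further list. The members and lists were chosen with earlier results of these data known.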

Additional observations from a re-analysis of the deposited data

Results flagged for a closer look

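In each group of 4 to 10 samples, the highest and lowest value of every member was set against the rest by Dixon's criterion. Among 78 such groups 4 held a sample far from the others, and chance marks about 1 in 20 groups. All 4 were the highest values of Pax5+/- leukemia 2. Hk2, the inducible hexokinase, was 7.52 there and 6.99 in the next leukemia. Ldhb, the lactate dehydrogenase subunit that favours pyruvate, was 5.97 with 5.73 next. Taldo1, transaldolase of the pentose phosphate branch, was 8.94 with 8.03 next. Mdh2, mitochondrial malate dehydrogenase, was 12.25 with 11.75 next. The same sample had the highest mean over the monocyte and macrophage markers of the 10 leukemias, 9.35, and a neutrophil mean of 10.32. The part of these cells in the 4 values was not tested.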

How the results depend on the processing

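No paired analysis was made. Sample numbers run serially over the arrays, so they do not show whether samples of different groups came from the same mouse. Shares of all genes were not counted for the alternative fits, so the member counts below have no background beside them. In Pax5+/- mice 21 members were higher and 4 lower. With the proliferation mean as a covariate 13 were higher, and Fh1, Hk2, Idh2, Mdh1, Mdh2, Pdha1, Pgd, Pkm and Sdha lost their calls. Lower members numbered 10 with median centring and 8 with the myeloid marker mean as a covariate. With the latter, 66.7% of called members were higher, and Hk3, Idh1, Ogdh, Slc16a3 and Taldo1 were newly called lower. Hk2, Mdh1, Mdh2, Pdha1, Pgd and Pkm then lost their calls. With that covariate the difference of Pgd reversed to -0.0081. In WT mice 14 members were higher and 3 lower. With the proliferation covariate 4 were higher. The myeloid covariate gave 11 higher and 5 lower, and Sdha, Slc2a3 and Suclg1 lost their calls. Hk3 and Slc16a3 were then newly called lower. Without samples 15, 17 and 20, chosen after seeing the data, 1 was lower. That fit leaves leukemia 14 alone in its group, assumed to vary like the other groups, and says little of stability. Fitted on the preleukemic groups alone, 1 member was higher and 2 were lower in Pax5+/- than in WT mice. Leaving out single samples gave 21 to 22 higher and 3 to 5 lower members in Pax5+/- mice, and 13 to 17 higher and 2 to 3 lower in WT mice. Without Pax5+/- leukemias 2, 6 and 7, also chosen after seeing the data, 22 members were higher and 5 lower in Pax5+/- mice. Eno2 and Ldhb lay below the median of every array, which limits what their values show.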
